A study of Mus musculus with 9 samples.

Results

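Unstimulated peritoneal macrophages of TRIF KO mice were set against those of wild-type mice, with 1 array on each side. These are 2 of the 9 arrays of the series, which covers TRIF KO, MyD88 KO and wild-type cells at 0, 1 and 4 h. The comparison took in every gene that could be measured, 10032 of 12394 named genes, namely those whose probe set reached a log2 value of 6 on at least 1 of the 9 arrays. The 0 h arrays had received no lipopolysaccharide (LPS, the cell wall component of Gram-negative bacteria that Toll-like receptor 4 detects), while the 1 h and 4 h arrays of the same genotypes had received 100 ng/ml. All mice of every genotype had been injected with thioglycollate broth, an irritant that recruits monocytes into the peritoneal cavity. The cells were thus an elicited population, and the share of resident macrophages in it was not determined. TRIF KO and MyD88 KO cells came from TRIF-/- and MyD88-/- mice. Neither the labels nor the design text gives the strain, age, sex or number of the mice, or says whether mice were pooled.

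TRIF, encoded by Ticam1, is the adaptor protein that carries signals from Toll-like receptors 3 and 4 to the kinase TBK1 and the transcription factor IRF3, which switch on type I interferon genes. MyD88 is the other adaptor of Toll-like receptor 4 and leads more directly to NF-kB and inflammatory cytokines. Macrophages make a little interferon even at rest, and this keeps a set of interferon-stimulated genes, among them the Ifit family, at a low standing level. Levels below are log2 values summarised by RMA, an Affymetrix procedure that corrects the background, equalises the distributions of the arrays and combines the probes of a probe set. A difference of 1 is therefore a factor of 2.

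The 3 promoters shown first belong to the genes with the lowest differences at 0 h in a list of interferon-stimulated genes, Ifit1, Rsad2 and Ifit3. Each sequence is the 250 bases before the gene's start, written 5′ to 3′ on the gene's own strand, from RefSeq (GRCm38.p6). Ifit1 is at chr19:34640639-34640888 (plus strand), Ifit3 at chr19:34583279-34583528 (plus strand) and Rsad2 at chr12:26456453-26456702 (minus strand). Capitals mark the core of the interferon-stimulated response element, GAAANNGAAA, which reads TTTCNNTTTC on the opposite strand.
Ifit1: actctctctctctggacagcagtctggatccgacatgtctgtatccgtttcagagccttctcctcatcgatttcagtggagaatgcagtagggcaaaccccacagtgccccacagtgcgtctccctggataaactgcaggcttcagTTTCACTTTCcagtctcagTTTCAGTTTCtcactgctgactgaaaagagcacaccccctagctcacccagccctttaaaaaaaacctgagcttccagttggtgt
Ifit3: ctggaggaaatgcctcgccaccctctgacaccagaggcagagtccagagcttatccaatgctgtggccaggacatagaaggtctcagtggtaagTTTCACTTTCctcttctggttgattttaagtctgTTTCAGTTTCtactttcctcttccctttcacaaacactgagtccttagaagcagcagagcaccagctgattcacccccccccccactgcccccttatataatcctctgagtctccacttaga
Rsad2: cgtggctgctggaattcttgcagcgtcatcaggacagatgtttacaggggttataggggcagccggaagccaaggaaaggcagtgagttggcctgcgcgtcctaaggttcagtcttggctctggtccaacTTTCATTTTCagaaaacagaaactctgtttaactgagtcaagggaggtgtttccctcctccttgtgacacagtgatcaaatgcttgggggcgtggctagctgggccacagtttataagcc
The motif, searched on both strands, occurred 2 times in the Ifit1 and Ifit3 stretches and 1 time in that of Rsad2. It was present in 14 of the 32 measured interferon-stimulated genes that have a promoter in the table (43.8%), against 2.98% of the 32851 promoters of the same length that were searched. A match describes letters and not a bound site.

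Most macrophage markers read alike on both arrays. Adgre1, the classic surface marker of mouse macrophages, was at 12.06 in TRIF KO and 12.14 in wild-type cells, the receptor for macrophage colony-stimulating factor Csf1r at 13.39 and 13.33, and the endosomal glycoprotein Cd68 at 13.58 and 13.61. Over 16 measured macrophage identity genes the mean level was 11.59 in TRIF KO and 11.58 in wild-type cells. The mannose receptor Mrc1 differed most, with 9.99 in TRIF KO and 9.50 in wild-type cells, and it was the 1 member that the limma fits described below called. No probe set was assigned to Ticam1 alone, and it was not analysed here, so the label of the TRIF KO array could not be checked against the targeted gene. Myd88 read 9.56 in TRIF KO and 9.57 in wild-type cells. Xist, the RNA of the inactive X chromosome, read 10.71 in TRIF KO and 10.43 in wild-type cells, and the Y-linked Kdm5d read 6.02 and 6.16. Between the arrays 86.4% of the 10032 genes differed by no more than 0.2, and the values correlated at 0.995 (Pearson's r across genes, which are not independent replicates). The median difference was 0.00 and the SD across genes 0.16. Precision is limited by the number of arrays, and with 1 array a side a single 0 h difference has no replicate check.

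Few genes stood away from the bulk at rest. In TRIF KO cells 8 genes were at least 2-fold higher (0.0797% of the 10032) and 7 at least 2-fold lower (0.0698%) than in wild-type cells. At 1.5-fold there were 30 on each side, 0.299% each. The differences ran from -2.77 for Npy to 3.52 for Gdpd3, and 99% of genes lay within 0.47 of 0.

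**Figure D1:**
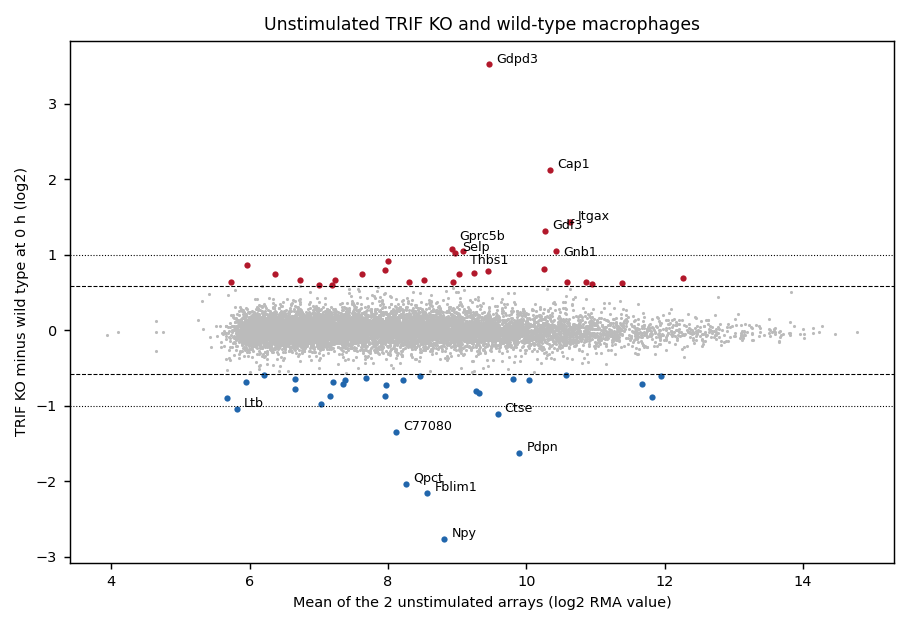
TRIF KO minus wild type at 0 h (log2, vertical axis) against the mean of the 2 unstimulated arrays (log2 RMA value, horizontal axis), 1 dot per gene for 10032 genes. Red dots are at least 1.5-fold higher and blue dots at least 1.5-fold lower in TRIF KO, dashed lines mark 1.5-fold and dotted lines 2-fold, and genes past 2-fold are named, with Gdpd3 at 3.52 and Npy at -2.77 farthest from 0.

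Among the genes higher in TRIF KO cells at rest, Gdpd3, which encodes a glycerophosphodiester phosphodiesterase, differed most. It read 11.22 in TRIF KO and 7.71 in wild-type cells, a factor of 11.5. Cap1, an actin regulator that binds adenylyl cyclase, read 11.41 in TRIF KO and 9.29 in wild-type cells, a difference of 2.12. Both genes kept these distances after LPS. Gdpd3 was at 11.07 and 10.94 at 1 and 4 h in TRIF KO, against 7.82 and 7.31 in wild type, and Cap1 at 11.29 and 11.32 against 9.02 and 8.69. None of the 3 TRIF KO levels of either gene overlapped the 3 wild-type levels.

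Itgax encodes CD11c, the alpha chain of an integrin used to mark dendritic cells and some tissue macrophages. Its levels at 0, 1 and 4 h were 11.35, 11.27 and 11.43 in TRIF KO and 9.92, 10.05 and 10.25 in wild type. Gdf3, a ligand of the TGF-beta family, read 10.92, 10.90 and 10.86 in TRIF KO and 9.61, 9.40 and 9.35 in wild type. In both genes every TRIF KO array lay above every wild-type array by more than the genotypes' own movement over time. Selp, the adhesion molecule P-selectin, stood at 9.49, 9.49 and 9.18 in TRIF KO and 8.46, 8.4 and 8.21 in wild type. Gnb1, a beta subunit of heterotrimeric G proteins, stood at 10.96, 11.10 and 11.13 in TRIF KO and 9.90, 9.63 and 9.63 in wild type. The orphan receptor gene Gprc5b was 1.07 higher at 0 h, with levels of 9.46, 9.14 and 9.32 in TRIF KO and 8.39, 8.20 and 7.88 in wild type.

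Thbs1, the matrix protein thrombospondin 1, was the remaining gene past 2-fold upwards, and its distance was narrower after LPS. It read 9.61 in TRIF KO and 8.57 in wild-type cells at 0 h, a difference of 1.04. The difference was 0.67 at 1 h and 0.41 at 4 h. Marcksl1, a MARCKS-like actin-binding protein, had differences of 0.81, 0.60 and 0.16 at 0, 1 and 4 h, and Vcl, the focal adhesion protein vinculin, had 0.78, 0.49 and 0.18. Whether these differences depend on time was not tested, because each genotype has 1 array per time.

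Among the genes lower in TRIF KO cells, Npy, the neuropeptide Y gene, came first. It read 7.43 in TRIF KO and 10.19 in wild-type cells at 0 h, a factor of 6.8, and 7.62 and 7.81 against 9.77 and 9.75 at 1 and 4 h. Qpct, the enzyme glutaminyl cyclase that modifies the amino termini of peptides and chemokines, read 7.24, 7.30 and 7.31 in TRIF KO and 9.28, 9.07 and 9.11 in wild type. Qpct was 4.12-fold lower at rest, and in both genes every TRIF KO level lay below every wild-type level. Fblim1, which links filamin to cell adhesions, read 7.49, 7.44 and 6.84 in TRIF KO and 9.65, 9.51 and 8.55 in wild type. Pdpn, the mucin-type membrane protein podoplanin, read 9.08, 9.15 and 9.69 in TRIF KO and 10.71, 10.43 and 10.70 in wild type. The TRIF KO levels of both lay below all wild-type levels.

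C77080 read 7.44 in TRIF KO and 8.79 in wild-type cells at rest. Ctse, the endosomal protease cathepsin E, read 9.03 in TRIF KO and 10.14 in wild type. Ltb, which encodes lymphotoxin beta and is mostly a lymphocyte gene, read 5.29 in TRIF KO and 6.34 in wild type at 0 h. Its later values were 5.63 at both times in TRIF KO and 5.79 and 5.66 in wild type, so the unstimulated wild-type array alone stood above the other 5. Below 2-fold, the efferocytosis bridge Mfge8, which couples dying cells to phagocytes, was at 11.38, 11.30 and 11.23 in TRIF KO and 12.27, 12.17 and 12.12 in wild type. Ifi202b, an interferon-inducible DNA-binding protein of the p200 family, was at 8.91, 8.89 and 8.75 in TRIF KO and 9.74, 9.60 and 9.95 in wild type.

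**Figure D2:**
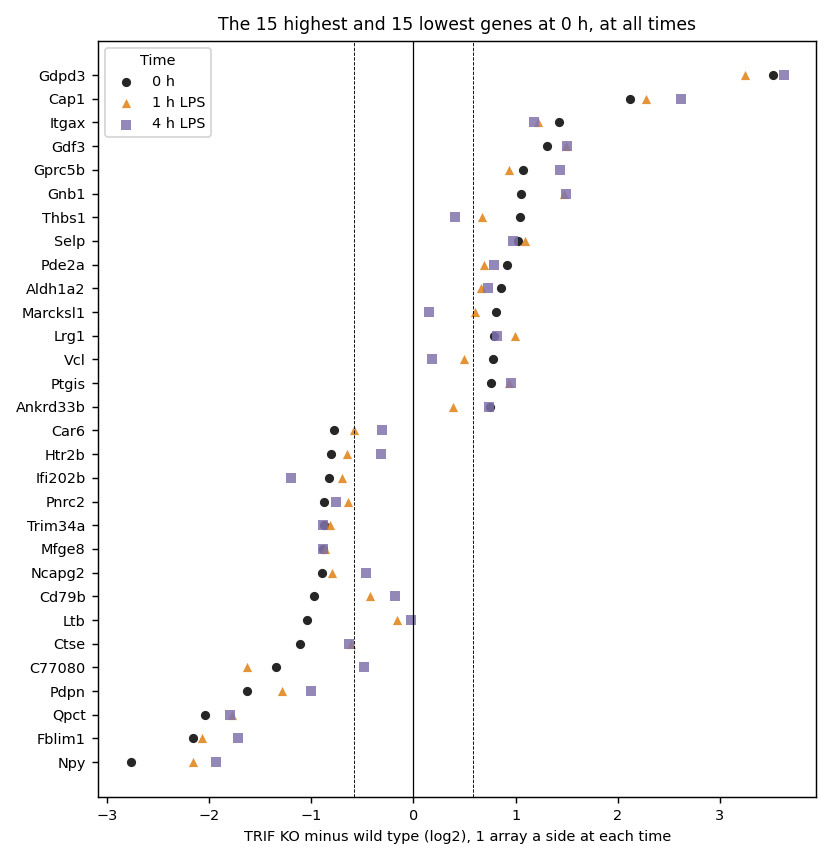
TRIF KO minus wild type (log2, horizontal axis) for the 15 genes with the largest positive and the 15 with the largest negative difference at 0 h (rows), at 0 h (circles), 1 h (triangles) and 4 h of LPS (squares), 1 array a side at each time. Dashed lines mark 1.5-fold, and Gdpd3, Cap1, Npy and Qpct stay past it at each time while Ltb is at -0.03 at 4 h.

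The 1 h and 4 h arrays show whether a difference seen at rest was present in arrays that the 0 h ranking did not use. Of the 30 genes at least 1.5-fold higher in TRIF KO at 0 h, 29 were also above wild type at 1 h and 30 at 4 h. Of the 30 lower ones, 29 were below wild type at 1 h and 28 at 4 h. At least 1.5-fold in the same direction were 22 of the higher and 15 of the lower genes at 1 h, and 19 and 11 at 4 h. Of all genes, 0.359% were that much higher and 0.249% lower at 1 h, and 0.558% higher and 0.907% lower at 4 h.

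A limma fit of genotype and time to the 6 arrays at 1 h and 4 h (2 residual degrees of freedom, threshold 0.05 after Benjamini-Hochberg adjustment over all genes) called 74 genes higher (0.738%) and 31 lower (0.309%) in TRIF KO than in wild type. The split was 32 higher and 24 lower with each array centred on reference transcripts, and 36 higher and 57 lower without the TRIF KO array at 1 h. With values under log2 6 raised to 6, 18 genes were called, 14 higher and 4 lower. Among the genes past 1.5-fold at 0 h, 21 of 30 higher and 15 of 30 lower ones were called in the same direction. In this fit Gdpd3 was higher by 3.44 (adjusted p = 1.11e-06), Cap1 by 2.45 (adjusted p = 6.25e-06) and Gdf3 by 1.5 (adjusted p = 1.4e-05). Qpct fell by 1.79 (adjusted p = 6.25e-06) and Npy fell by 2.04 (adjusted p = 1.37e-05). The labels do not tie arrays to mice or cultures, so these p-values reflect no more than the scatter among the arrays at hand, and part or all of it may be technical.

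The fit to all 9 arrays, with time as a term and 4 residual degrees of freedom, includes the 0 h arrays and adds precision rather than independence. It called 118 genes higher (1.18%) and 42 lower (0.419%), among them 25 of the 30 higher and 22 of the 30 lower genes of the 0 h comparison, counts that the choice of these genes on the 0 h arrays helps to set. Gdpd3 was higher by 3.46 ± 0.081 (SE; limma, Benjamini-Hochberg adjusted p = 7.31e-11), Itgax by 1.28 ± 0.068 and Npy lower, at -2.28 ± 0.122. The higher genes that were not called were Thbs1, Marcksl1, Hbegf, Egr1 and Tnfaip2, with adjusted p between 0.0752 and 0.394. The lower genes that were not called were Ltb, Cd79b, F9, Bex1, Rnf138, Ifit1, Slc40a1 and Igkv8-30, with adjusted p between 0.0758 and 0.564. The number of calls depended on single arrays, with 68 without the TRIF KO array at 1 h and 243 without the wild-type array at 0 h. A call described below as lost without single arrays did not pass when at least 1 of the TRIF KO or wild-type arrays was left out.

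**Figure D3:**
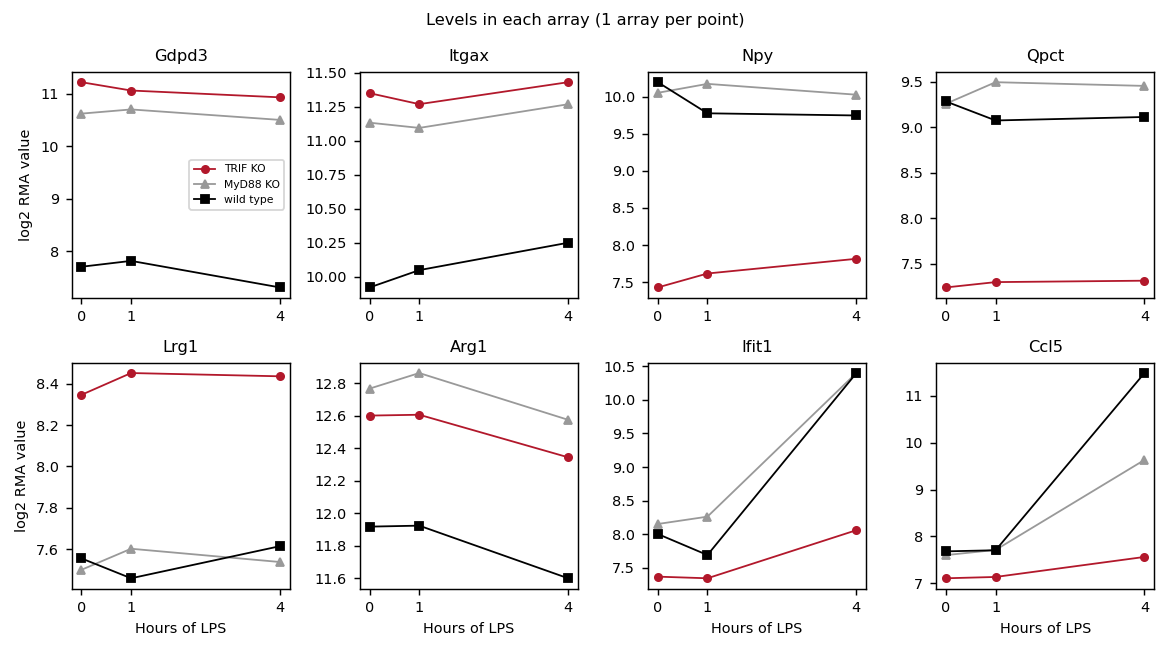
Level (log2 RMA value, vertical axis) of 8 genes against hours of LPS (horizontal axis) in TRIF KO (red circles), MyD88 KO (grey triangles) and wild type (black squares), 1 array per point and no error bars. Gdpd3, Itgax, Lrg1 and Arg1 lie higher and Npy and Qpct lower in TRIF KO than in wild type at each time, while the differences of Ifit1 and Ccl5 are -0.63 and -0.57 at 0 h and -2.33 and -3.92 at 4 h.

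The unstimulated MyD88 KO array gives a second genotype at rest, compared with the same wild-type array, so the comparisons are not independent and only levels are set side by side. Gdpd3 read 11.22 in TRIF KO, 10.63 in MyD88 KO and 7.71 in wild type, and Cap1 read 11.41, 11.46 and 9.29 in the same genotypes. Itgax read 11.35 in TRIF KO, 11.13 in MyD88 KO and 9.92 in wild type. For these genes the wild-type array was the one apart. The reverse held for Npy, at 7.43 in TRIF KO, 10.05 in MyD88 KO and 10.19 in wild type, and for Qpct, at 7.24, 9.26 and 9.28. Lrg1, a secreted leucine-rich glycoprotein, read 8.35 in TRIF KO, 7.50 in MyD88 KO and 7.56 in wild type, and Mfge8 read 11.38, 12.53 and 12.27. In these 4 genes the TRIF KO array stood apart from both others. Most other genes past 2-fold differed the same way in MyD88 KO. There the difference from wild type at 0 h was 1.65 for Thbs1, 0.96 for Gprc5b, 0.89 for Gnb1 and 0.71 for Selp. It was -1.62 for Fblim1, -1.46 for Ctse, -1.08 for C77080, -0.97 for Pdpn and -0.88 for Ltb. MyD88 KO against wild type at 0 h had 148 genes past 1.5-fold (1.48%), against 60 (0.598%) for TRIF KO.

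The remaining genes past 1.5-fold upwards belonged to several kinds. Enzymes were Pde2a, which breaks down cyclic nucleotides, with a difference of 0.91 at 0 h, the retinaldehyde dehydrogenase Aldh1a2 (0.86), the prostacyclin synthase Ptgis (0.76) and the lysosomal fucosidase Fuca1 (0.63). Also higher were Apoc2, the cofactor of lipoprotein lipase (0.74), the metal-binding protein Mt1 (0.63), the chemokine Ccl24 (0.64), Ccr2, the receptor of the monocyte attractant Ccl2 (0.66), and the cytokine receptor subunit Csf2rb2 (0.61). In the fit to 1 h and 4 h, which leaves out the 0 h arrays, 21 of all 30 genes past 1.5-fold upwards were called higher, against 0.738% of all genes. The genes just named are a part of the 30 picked by kind, so no rate is drawn from them. Csf2rb2 was not called (limma, Benjamini-Hochberg adjusted p = 0.13), and the rest of them were (adjusted p between 5.14e-04 and 0.0315). The call of Ccr2 was lost when any 1 of the TRIF KO or wild-type arrays was left out. Aldh1a2 was under log2 6 on all wild-type arrays and passed the filter through the knockout arrays. The others were Ankrd33b (0.75), Hbegf, a growth factor of the EGF family (0.74), Arg1, Egr1, Cdk5rap1, Col3a1, Snhg6, Tnfaip2, Ccdc80 and Cyp1b1, the last 8 between 0.59 and 0.68.

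Lower genes included several with known roles in phagocytes. Ncf4, a cytosolic subunit of the NADPH oxidase, read 11.32 in TRIF KO and 12.04 in wild-type cells at rest. Trem2, a lipid-sensing receptor of macrophages and microglia, read 11.65 and 12.25. Il1r1, the signalling receptor of interleukin 1, read 7.0 in TRIF KO and 7.71 in wild type. All were called lower over all times (limma, Benjamini-Hochberg adjusted p = 9.73e-05 for Ncf4, 3.34e-04 for Trem2 and 0.0139 for Il1r1), and the call of Il1r1 was lost without single arrays. That fit includes the 0 h arrays on which these genes were chosen. In the fit to 1 h and 4 h, Ncf4 and Trem2 were also called. Both calls were lost with values under log2 6 raised to 6, and that of Trem2 also without the TRIF KO array at 1 h. Both genes read far above log2 6 at rest, and raising low values alters the spread that limma shares across genes. Htr2b, a serotonin receptor, was lower by 0.80 at 0 h, Mpc1, a subunit of the mitochondrial pyruvate carrier, by 0.66, and the iron exporter Slc40a1 by 0.61. The other lower genes were Trim34a (-0.88), Pnrc2 (-0.87), the condensin subunit Ncapg2 (-0.90), Car6 (-0.78), Plac8 (-0.72), F9 (-0.69), the cell cycle inhibitor Cdkn1c (-0.66), Bex1 (-0.65), Rnf138 (-0.64), Ptp4a2 (-0.59) and the B cell transcripts described below.

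The listed interferon-stimulated genes as a group were close to wild type at rest. Of 43 measured members of a list of 57, 15 were above and 28 below wild type in TRIF KO, with a median difference of -0.05, against 0.00 for all genes. Of these members only Ifit1, an antiviral RNA-binding protein, passed 1.5-fold. It read 7.37 in TRIF KO and 8.0 in wild-type cells, a difference of -0.63, and the unstimulated MyD88 KO array read 8.15. The interferon-inducible Ifi202b, described above, was not on the list and differed by -0.83 at 0 h. Rsad2, the antiviral enzyme viperin, read 8.97 in TRIF KO and 9.51 in wild type. Ifit3 read 6.70 in TRIF KO and 7.09 in wild type, and Ifit2 read 5.46 and 5.85, under log2 6 on both arrays.

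These members were further apart once LPS was present. At 4 h Ifit1 read 8.06 in TRIF KO and 10.40 in wild type, and the median of the 43 genes was -0.43, with 2 of them above wild type. At 1 h the median was -0.03, with 19 above. Over all times limma called 1 member, Trim30a, a TRIM protein, which was lower by 0.25 at 0 h (9.98 in TRIF KO and 10.23 in wild type; Benjamini-Hochberg adjusted p = 0.0234). That call was lost without any 1 of the TRIF KO and wild-type arrays at 1 h and 4 h. At an unadjusted p under 0.05, 18 of the 43 members were lower over all times, against 4.88% of all genes, and no member was higher. Ifit1 and Rsad2 were not called (adjusted p = 0.0758 and 0.16), and their difference varied with time, which enlarges the error of this fit. Ccl5, a T cell attractant that interferon and TLR signals induce, stood just short of 1.5-fold at rest, with 7.11 in TRIF KO and 7.68 in wild type, and differed by -3.92 at 4 h. The related chemokine Cxcl10 read 6.93 in TRIF KO and 6.72 in wild type at rest. Cxcl11 did not pass the filter on low values.

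Receptors and regulators of interferon signalling had a median of 0.09, with 14 of 19 members above wild type and none past 1.5-fold. Ifnar1, a chain of the type I interferon receptor, read 9.29 in TRIF KO and 9.10 in wild type. The components of TLR4 signalling itself, 18 measured of 24, had a median of 0.05 and ran from -0.28 for Peli1, a ubiquitin ligase, to 0.38 for Cd14, the LPS co-receptor. None of them, and none of the interferon receptors and regulators, was called by limma in either fit. At an unadjusted p under 0.05 there were 3 in each list over all times, against 13% of all genes in either direction, and 4 and 6 in the fit to 1 h and 4 h, against 16.3%. Over all times the shares were thus near that of all genes.

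NF-kB subunits and inhibitors and immediate early genes mostly read slightly higher in the TRIF KO array at rest. Of 13 NF-kB subunits and inhibitors, 12 were above wild type, with a median of 0.20 and a highest value of 0.38 for Bcl3, a nuclear member of the inhibitor family. Of 23 immediate early genes 18 were above wild type, with a median of 0.08. Egr1, a zinc finger factor that serum and stress induce within minutes, read 8.85 in TRIF KO and 8.19 in wild-type cells, and Ier3 read 9.21 and 8.66. No member of either list was called by limma over all times, where 1 of 13 and 6 of 23 had an unadjusted p under 0.05 (13% of all genes), and at 4 h only 1 of the 13 NF-kB genes was above wild type. Across all genes 50.5% were above wild type at 0 h.

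Inflammatory cytokines were spread around 0 at rest, with 9 of 15 above wild type and a median of 0.05. Tnfsf9, a costimulatory ligand of the TNF family, read 6.49 in TRIF KO and 6.06 in wild-type cells at rest. After LPS most members were below wild type, 11 of 15 at 1 h (median -0.08) and 13 at 4 h (median -0.57). Limma called none over all times. In the fit to 1 h and 4 h it called 2 lower, Tnfsf9 among them, and none higher, against 0.309% of all genes called lower. The call of Tnfsf9 was lost with values under log2 6 raised to 6. Chemokines outside the interferon group had a median of 0.05 over 19 members. Ccl24, an eosinophil attractant of alternatively activated macrophages, read 9.26 in TRIF KO and 8.62 in wild type (limma over all times, Benjamini-Hochberg adjusted p = 3.28e-05). Ccl8 read 7.82 in TRIF KO and 8.33 in wild type and was called lower (adjusted p = 0.0111), and Ccl6 was called higher, both calls being lost without single arrays. The 8 measured chemokine receptors had a median of 0.05, with Ccr2 at 7.56 in TRIF KO and 6.90 in wild type, and the homing receptor Cxcr4 at 9.84 and 10.39.

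Among the lists that are not markers of other cells, genes typical of resident peritoneal macrophages had the highest median at rest, 0.32 over 14 measured of 16 genes, with 11 above and 3 below wild type. Members past 1.5-fold were Thbs1, Selp and Lrg1. Limma over all times called 5 higher (Icam2, Selp, Prg4, Alox15 and Lrg1) and none lower (0 also at an unadjusted p under 0.05), against 1.18% higher and 0.419% lower among all genes. The calls of Selp and Lrg1 held without each array, and those of Icam2, Prg4 and Alox15 were lost without single arrays. The fit to 1 h and 4 h called 4 of them, all but Prg4, and there too the calls of Icam2 and Alox15 were lost without single arrays. In that fit the calls of Lrg1, Icam2 and Alox15 were also lost with values under log2 6 raised to 6. That of Alox15 was lost with centring on reference transcripts too. The factor that defines resident cells, Gata6, read 7.37 in TRIF KO and 7.09 in wild type. The resident macrophage markers Cd5l and Vsig4 read 12.81 and 11.77 in TRIF KO and 12.95 and 11.77 in wild type. The list thus held members at, above and below the wild-type level.

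Genes of alternative activation, the programme that interleukin 4 induces, had a median of 0.24, with 12 of 16 measured members above wild type. The median in MyD88 KO, against the same wild-type array, was also 0.24. Arg1, the arginine-degrading enzyme arginase 1, read 12.60, 12.61 and 12.35 in TRIF KO at 0, 1 and 4 h and 11.92, 11.92 and 11.60 in wild type, so its distance from wild type was nearly constant. The unstimulated MyD88 KO array read 12.77. Limma over all times called 6 members higher and none lower: Arg1 (Benjamini-Hochberg adjusted p = 3.68e-05), the chitinase-like Chil3, the mannose receptor Mrc1, the lectins Clec10a and Mgl2, and Ccl24. Among all genes 1.18% were called higher and 0.419% lower. At an unadjusted p under 0.05, 2 members were lower. The calls of Chil3 and Clec10a were lost without single arrays. In the fit to 1 h and 4 h 5 of them were called, all but Chil3. There the calls of Mrc1, Mgl2 and Clec10a were lost without single arrays and with centring on reference transcripts. These calls were also lost with values under log2 6 raised to 6. Retnla, a secreted protein of the same programme, read 11.08 in TRIF KO and 10.95 in wild type.

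Receptors for debris, lipoproteins and antibody were balanced, with 10 of 26 above wild type and a median of -0.06. Itgax and Mfge8, described above, were its extremes. C5ar1, the receptor of complement fragment C5a, read 10.91 in TRIF KO and 10.36 in wild type, and both it and the bridging protein Gas6 were called higher by limma over all times, that of Gas6 being lost without single arrays. Genes of lipid handling had a median of -0.05. Apoe, the apolipoprotein that macrophages secrete, was the exception at 14.08 in TRIF KO and 13.57 in wild type (adjusted p = 8.91e-04). Sterol synthesis genes had a median of -0.05, with 12 of 15 below wild type and the epoxidase Sqle at 9.70 in TRIF KO and 10.11 in wild type, and none was called (4 at an unadjusted p under 0.05, which 13% of all genes had). Above wild type were 9 of the 15 at 1 h and 7 at 4 h.

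Antigen presentation differed little. Class II and costimulatory genes had a median of -0.03 over 13 members. Class I genes had a median of -0.06, with 8 of 10 below wild type at 0 h, 3 at 1 h and 10 at 4 h. H2-M3, a non-classical class I molecule that presents formylated peptides, read 8.94, 9.12 and 9.06 in TRIF KO and 9.50, 9.65 and 9.61 in wild type at 0, 1 and 4 h (limma over all times, Benjamini-Hochberg adjusted p = 7.32e-04). The oxidative stress list had 11 of 13 members below wild type at 0 h and a median of -0.07, with 9 below at both 1 h and 4 h. Its member Mt1, a metallothionein, read 11.18 in TRIF KO and 10.55 in wild type. At 0 h 50.5% of all genes were above wild type, but 9 of 12 reference transcripts were below it.

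Macrophage effector enzymes had a median of 0.04 over 23 members. Acod1, the enzyme that makes itaconate, read 8.81, 9.50 and 11.69 in TRIF KO and 9.31, 10.64 and 13.04 in wild type, and Lcn2, an iron-siderophore trap, read 5.73 and 6.28 at rest. Both were called lower over all times, as was Gpr84, and F7 and Plaur were called higher. Among all genes 0.419% were called lower and 1.18% higher. The call of Lcn2, which was under log2 6 in TRIF KO, was lost with values under log2 6 raised to 6, and the others were lost without single arrays. Medians lay between -0.01 and 0.05 for heat shock genes, lysosomal hydrolases, glycolysis, inflammasome genes and the cell cycle. In these lists the inflammasome adaptor Pycard and the replication licensing genes Mcm6 and Mcm7 were called higher over all times. These 3 calls were lost without single arrays too. The 12 reference transcripts had a median of -0.05, with 9 below wild type, and the highest and lowest were at 0.07 and -0.12. At 1 h 10 of the 12 were above wild type.

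**Figure D4:**
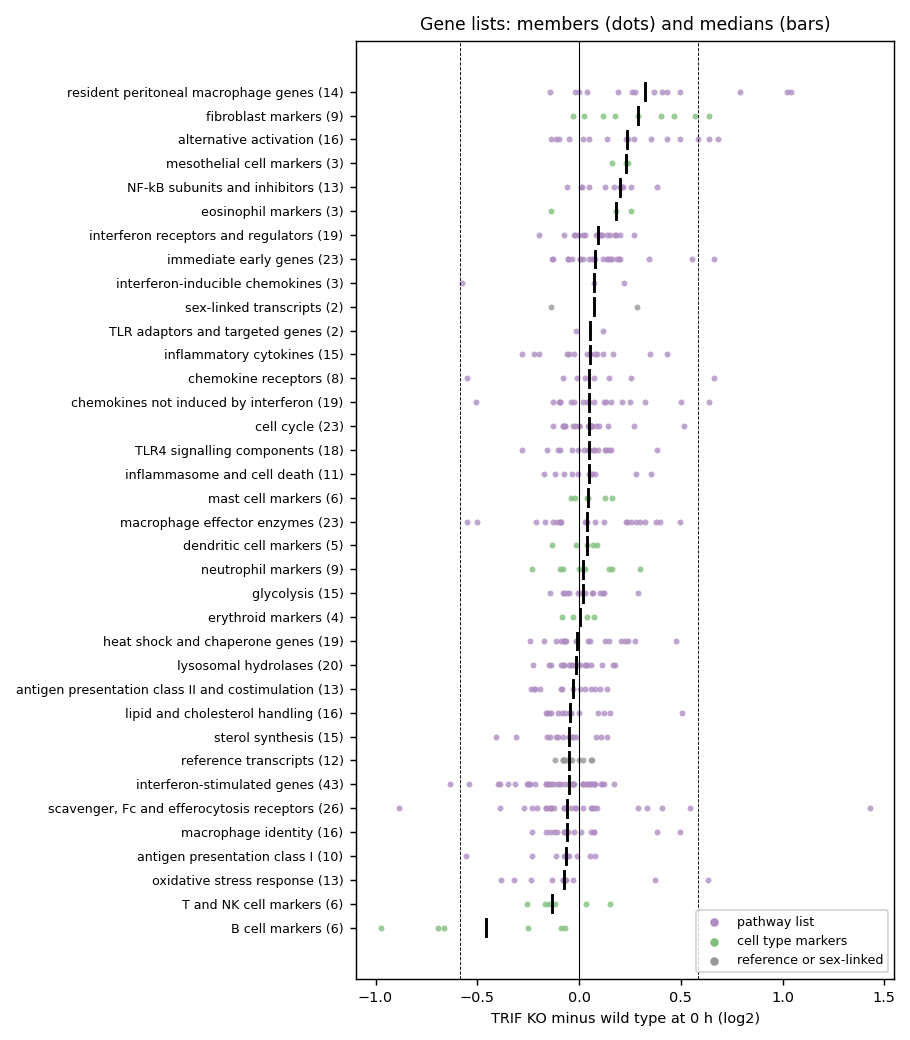
TRIF KO minus wild type at 0 h (log2, horizontal axis) for the measured members (dots) of 36 gene lists (rows, number of measured members in parentheses), with the median of each list as a black bar and dashed lines at 1.5-fold. Resident peritoneal macrophage genes have the highest median, 0.32, and B cell markers the lowest, -0.46.

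Transcripts of other cell types in the preparations also differed. All 6 measured B cell markers were lower in TRIF KO cells at rest, with a median of -0.46, while 50.5% of all genes were above wild type. Cd79b and Cd79a, the signalling chains of the B cell receptor, read 6.55 and 7.04 in TRIF KO and 7.52 and 7.71 in wild type, and Ms4a1 (CD20) read 6.86 and 7.56. Differences at 0 h were smaller for Blk (-0.25), Ighm (-0.09) and Cr2 (-0.07). Ighm was above wild type at 1 h (0.24) and 4 h (0.22). The mean level of the 6 markers was 7.02, 7.04 and 7.10 in TRIF KO at 0, 1 and 4 h, 7.08, 7.21 and 7.09 in MyD88 KO, and 7.48, 7.30 and 7.26 in wild type. The unstimulated wild-type array was thus the highest of the 9. Pax5, Ebf1, Fcrla and Pou2af1 did not pass the filter on low values. The immunoglobulin segment Igkv8-30 read 5.91 in TRIF KO and 6.5 in wild type. Limma over all times called Cd79a (Benjamini-Hochberg adjusted p = 0.00294) and Ms4a1 (0.0152) lower, against 0.419% of all genes called lower. The call of Ms4a1 was lost without single arrays. In bulk RNA, fewer cells of a type and less RNA per cell cannot be told apart, and the part of B cells in the differences of Ltb and Cd79b was not tested.

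Fibroblast markers ran the other way, with 8 of 9 measured members above wild type in TRIF KO and a median of 0.29. The collagen gene Col3a1 read 6.05 in TRIF KO and 5.42 in wild type at rest, and the matrix proteoglycan Dcn read 8.14 and 7.57. Limma over all times called Col3a1, Dcn, Col1a2 and Sparc higher, with adjusted p between 1.4e-04 and 0.00906, against 1.18% of all genes called higher. Col1a1, Pdgfra, Fbln1, Postn and Mmp2 were not called. At 1 h 6 of the 9 members were above wild type, and at 4 h 7. A second probe set of Col3a1 differed by 0.18, -0.35 and 0.34 at 0, 1 and 4 h. The mean level of the 9 markers was 7.06, 7.09 and 7.20 in TRIF KO, 7.20, 7.21 and 7.14 in MyD88 KO, and 6.76, 6.84 and 6.84 in wild type. Lum, Pdgfrb and Thy1 did not pass the filter. Col3a1 was under log2 6 on all wild-type arrays and passed the filter through the knockout arrays, and its call was lost with values under log2 6 raised to 6. The calls of Col1a2 and Sparc were lost without the TRIF KO array at 4 h, and that of Col1a2 also without the TRIF KO array at 0 h or the wild-type array at 1 h. The part of fibroblasts in the other differences was not tested.

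Other cell types showed small shifts on few markers. The median was 0.02 for 9 neutrophil markers, -0.13 for 6 of T and NK cells, 0.18 for 3 of eosinophils and 0.04 for 6 of mast cells. It was 0.04 for 5 of dendritic cells, 0.23 for 3 of mesothelial cells and 0.01 for 4 of erythroid cells. None of these markers passed 1.5-fold or was called by limma over all times, where unadjusted p under 0.05 was reached by 1 neutrophil, 2 mast cell, 1 dendritic cell and 1 mesothelial marker, and by 13% of all genes. The defining dendritic cell genes Zbtb46 and Flt3 read 6.30 and 7.89 in TRIF KO and 6.43 and 7.82 in wild type. The part of dendritic cells in the difference of Itgax was not tested.

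The share of genes past 1.5-fold differed between chromosomes, on small counts that were not tested. Chromosome 4 held 10 genes past 1.5-fold at 0 h among 609 analysed (1.64%), chromosome 1 held 8 of 585 (1.37%), chromosome 18 held 3 of 234 (1.28%), chromosome 17 held 6 of 502 (1.2%) and chromosome 7 held 9 of 794 (1.13%), against 0.598% of all genes. Chromosomes 3 and 13 held none. All 10 genes of chromosome 4 lay between places 328 and 586 in gene order, with none among the first 327 genes. From Cap1 at place 328 to the end they made up 3.55% of 282 genes, 4 of them higher (Cap1, Marcksl1, Fuca1 and Gnb1) and 6 lower (C77080, Ptp4a2, Pnrc2, Fblim1, Pdpn and Car6). That stretch begins at the first of these genes, so its boundary comes from the same 0 h values and raises the share. Probe sets of Ptp4a2 disagree in direction, as given below. Unstimulated MyD88 KO, against the same wild-type array, differed the same way in Cap1 (2.17), Gnb1 (0.89) and Fuca1 (0.36). So it did in Fblim1 (-1.62), C77080 (-1.08), Pdpn (-0.97), Pnrc2 (-0.77), Ptp4a2 (-0.58) and Car6 (-0.13). Marcksl1 (-0.56) went the other way. On chromosome 7, Gdpd3 was at place 624 and Itgax at place 666.

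The targeted gene Ticam1 lies on chromosome 17. Lrg1 is 5 places from it among analysed genes, and was the only 1 of the 20 genes within 10 places on either side that passed 1.5-fold. The other 19 differed by -0.11 to 0.12. Lrg1 read 8.35, 8.45 and 8.44 in TRIF KO at 0, 1 and 4 h and 7.56, 7.46 and 7.62 in wild type, while the unstimulated MyD88 KO array read 7.50 (limma over all times, TRIF KO against wild type, Benjamini-Hochberg adjusted p = 1.22e-05). Counted in places from Ticam1, with negative places before it, Trem2 was at -26, Ltb at -120 and Mpc1 at -391. Qpct was at 68 and Cyp1b1 at 70. Whether the knockout and wild-type mice differed in strain background around these genes is unstated in the labels and was not tested.

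**Figure D5:**
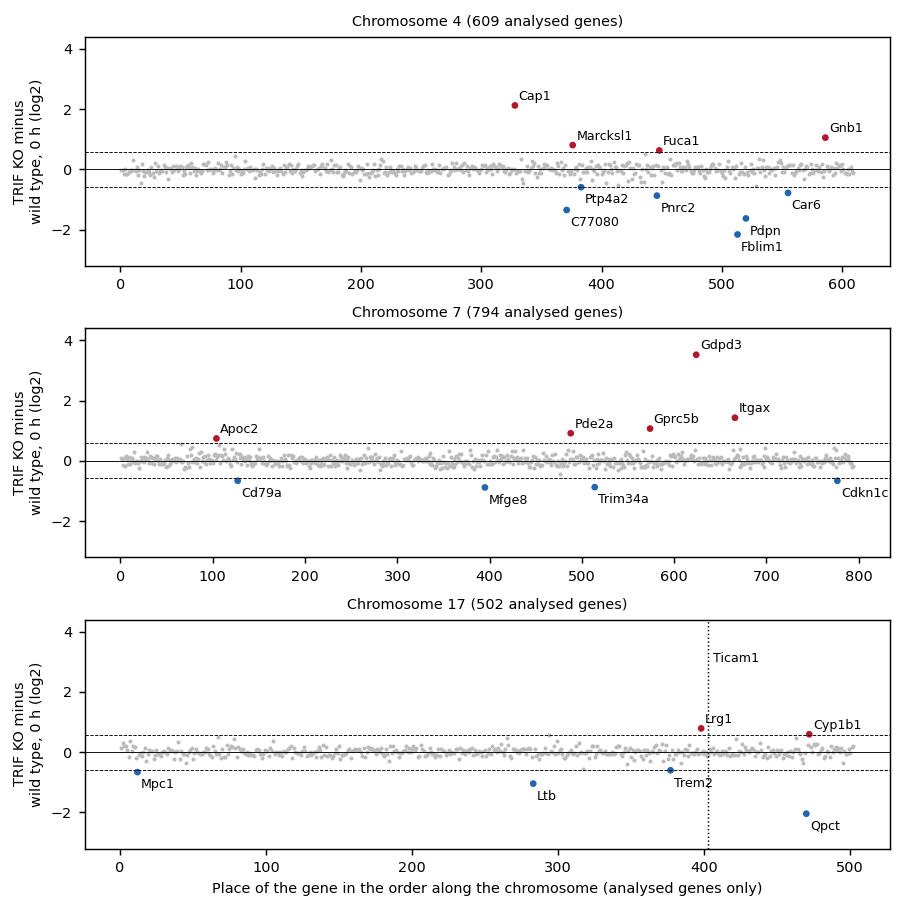
TRIF KO minus wild type at 0 h (log2, vertical axis) against the place of each analysed gene in the order along chromosomes 4, 7 and 17 (horizontal axis, 1 dot per gene). Red and blue dots are past 1.5-fold (dashed lines), the dotted line marks the place of Ticam1, and the 10 named genes of chromosome 4 all lie from place 328 onwards.

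Each gene was represented by the probe set with the highest mean level, and probe sets of 1 gene did not always move together. Of the 60 genes past 1.5-fold, 24 had more than 1 probe set, of which 19 had all in 1 direction and 5 had probe sets in opposite directions. In 8 genes every probe set passed 1.5-fold the same way. The pair for Cap1 differed by 2.12 and 2.26, the pair for Fblim1 by -2.16 and -2.12, and those for Fuca1 by 0.63, 0.67 and 0.76. Against this, Ctse had 1 probe set at -1.11 and 1 at 1.24. Ptp4a2 had 1 at -0.59 and 1 at 1.36, with the others at 0.02 and 0.10. The probe sets of Gnb1 read 1.05, 0.20 and -0.06, those of Gprc5b 1.07 and 0.29, those of Trem2 -0.60 and -0.05, and those of Trim34a -0.88 and 0.33. With the median over probe sets, Ctse, Ptp4a2 and Cyp1b1 had the opposite sign at 0 h, so these arrays do not settle their direction.

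Genes at the edges of the thresholds lay close together. Ccdc80 (0.59) was the last gene inside 1.5-fold upwards and Mgl2 (0.58) the first outside, and downwards these were Igkv8-30 (-0.59) and Ccl5 (-0.57). At 2-fold they were Selp (1.02) and Pde2a (0.91) upwards and Ltb (-1.04) and Cd79b (-0.97) downwards. On the filter, Rab27a passed and Rab4a did not, both with a maximum of 6.0 after rounding, and their differences at 0 h were 0.06 and 0.32. Of the 2362 genes under the filter, 3 differed by at least 1.5-fold. Among the 60 genes past 1.5-fold, 4 higher and 6 lower ones had a mean under log2 7 over the pair of arrays.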

How the data were processed

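Biotin-labelled RNA of 9 samples was measured on Affymetrix arrays with 22690 probe sets. The deposited log2 values are RMA summaries, according to the submitters' processing notes. No source used here gives the version of RMA or says that the arrays were normalized in 1 run. Array medians lay between 7.01 and 7.07, and the values were used as deposited. Probe sets were named through the platform's annotation, updated with RefSeq gene identifiers (GRCm38.p6), which served for names, chromosomes and gene order. Of the probe sets 20393 had 1 symbol, 691 several and 1606 were not listed, and 20364 identifiers matched RefSeq. Where a gene had more than 1 probe set (4958 genes), that with the highest mean level on all arrays was used.

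Unstimulated arrays were compared as differences of log2 values, with no test. Two-sided limma fits (version 3.58.1, R 4.3.3, lmFit and eBayes without trend, Benjamini-Hochberg threshold 0.05) used genotype and time as terms, with the times standing as replicates of a genotype, and were tested on simulated data. Named genes were the 15 highest and 15 lowest at 0 h, the 5 with the smallest limma p in each direction over all times, up to 4 of each of 36 gene lists with the largest 0 h difference, and the targeted genes. Other genes past 1.5-fold, called by limma or beside a result were added after their values were seen. The comparison, the lists and the rules were chosen with earlier results of these data known. Alternatives covered the probe set choice, the low-value filter, centring, loess, the fit's terms and arrays.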

Additional observations from a re-analysis of the deposited data

Results flagged for a closer look

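In 3 genes past 1.5-fold at 0 h, the difference between TRIF KO and wild type had the opposite sign at another time, and in none of them was the change of sign tested, since each group has 1 array. Egr1 differed by 0.66 (TRIF KO minus wild type) at 0 h and by -0.039 at 1 h, when both genotypes stood near their highest level, with 10.97 in TRIF KO and 11.01 in wild type. Igkv8-30, an immunoglobulin segment, was at -0.59 at 0 h and 0.075 at 4 h. Rnf138, a ubiquitin ligase, was at -0.64 at 0 h, 0.084 at 1 h and 0.022 at 4 h. Its levels at 0, 1 and 4 h were 6.33, 6.82 and 6.66 in TRIF KO, against 6.98, 6.74 and 6.64 in wild type.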

How the results depend on the processing

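The numbers of genes past 2-fold and 1.5-fold at 0 h stayed within 1.5 times of 15 and 60 under the probe set, filter, floor, centring and loess alternatives, with ranges of 10 to 15 and 52 to 63. With the median over probe sets, 4 genes were higher and 6 lower by 2-fold, and Ctse reversed to 0.062, Ptp4a2 to 0.407 and Cyp1b1 to -0.177, genes whose probe sets differ in direction. The calls of the fit over all times (160) were 96 with values under log2 6 raised to 6, 106 without the 4 h arrays and 66 with no time term. Leaving out 1 array gave 68 to 243, namely 68, 78 and 82 without the TRIF KO arrays at 1, 0 and 4 h, and 79, 243 and 128 without the wild-type arrays at 1, 0 and 4 h. The calls of the fit to 1 h and 4 h (105) were 18 with low values raised and 56 with centring on reference transcripts. Leaving out 1 array gave 53 to 292, namely 53 without TRIF KO at 4 h, 93 without TRIF KO at 1 h (36 higher and 57 lower), 292 without wild type at 1 h and 70 without wild type at 4 h, where the lone array of a genotype is assumed to vary like the others. The cause of these shifts was not tested. Of 75 genes of the text called over all times, 36 lost the call under at least 1 alternative and 29 without 1 array. Without the TRIF KO array at 1 h these included Alox15, Car6, Cdkn1c, Pycard, Il1r1, Ms4a1, Htr2b and Trim30a, without that at 4 h Sparc, Col1a2, Ccl8, Icam2 and Mcm7, and without the wild-type array at 1 h Acod1, Prg4, Vcl and Clec10a. Of 56 called in the fit to 1 h and 4 h, 38 lost the call under at least 1. Medians of 7 of 36 lists moved, B cell markers to -0.66 and fibroblast markers to 0.43 with the filter at log2 7. No paired analysis by replicate number was possible, since the labels number none. The time term compares the genotypes within each time, and with the TRIF KO and wild-type arrays alone, paired in this way by time, 179 genes were called over all times and 155 at 1 h and 4 h.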

Other observations

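Other genes that limma called, all chosen after their values were seen, included structural and metabolic ones. Cnn3, an actin-binding calponin, read 7.31, 7.46 and 7.45 in TRIF KO at 0, 1 and 4 h and 6.88, 6.75 and 6.78 in wild type. Lpin1, a phosphatidate phosphatase of lipid synthesis, read 7.69, 7.82 and 7.06 in TRIF KO and 7.24, 7.18 and 6.54 in wild type. Both were below 1.5-fold at rest and called higher by limma over all times (Benjamini-Hochberg adjusted p = 4.98e-04 for Cnn3 and 7.25e-04 for Lpin1). Iglv1, an immunoglobulin light chain segment, read 6.29 in TRIF KO and 6.83 in wild type at rest, with differences of -0.55, -0.26 and -0.31 at 0, 1 and 4 h, and was called lower (adjusted p = 0.0163), a call lost when any 1 of the TRIF KO arrays was left out.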
